A study of Mus musculus with 4 samples.

Results

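In adult mouse testis, 662 genes had 100 or more reads from the strand opposite to their own exons, summed over 4 strand-specific RNA-seq libraries. They were taken from the 2346 genes with a listed exon antisense count, and each was compared with the exon sense count of the same gene, of which 12415 were listed. The whole table held 25745 rows in 10 annotation categories, and every row had at least 5 reads. The genes were chosen by their antisense counts summed over all libraries, so their levels are given as a description without a test, whereas the genotype did not enter the choice. Each gene is an annotated feature with its own strand, but what is annotated on the opposite strand was not used.

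The study asked what the loss of Nef-sp does to the testis transcriptome. Nef-sp, annotated as 2610020H08Rik and also named REXO5, encodes a nuclear 3′ to 5′ exoribonuclease. Libraries were made from ribosomal RNA-depleted total testis RNA of Nef-sp -/- mice (n = 2) and Nef-sp +/- mice (n = 2), all adults at postnatal day 60 with C57Bl/6J as the labelled strain background. The mutant allele carries a deletion of 23 bp that shifts the reading frame, made with Cas9 nickase and a pair of guide RNAs, and founders were bred to C57Bl/6J Rj males. Thus the control animals also carry 1 mutant allele in every cell and no wild-type library was compared. The labels number the replicates without stating that each number is a separate animal, so p-values measure the spread between these libraries, which may be technical.

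A natural antisense transcript is an RNA read from the DNA strand opposite to a gene. Many come from a neighbouring gene whose end runs into the first gene, in which case both mRNAs share complementary bases, usually in untranslated regions. Others start at promoters that fire in both directions or inside the gene. The testis is known for a wide range of transcribed loci, many of them active in meiotic and haploid germ cells. A pair of arrangements recurs below. In the tail-to-tail (convergent) arrangement the 3′ end of the opposite gene lies within the gene, and in the head-to-head (divergent) arrangement its 5′ end does.

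The annotated 3′ ends of the opposite genes were looked up in the genome sequence of build mm9. A set of 6 windows of 30 bases are shown first, from 6 genes that were among the 10 with most antisense reads. They were chosen for a protein-coding opposite gene whose annotated 3′ end lay inside an exon and had a hexamer in its last 50 bases. All 6 thus hold a hexamer by choice, and genes among the 10 that did not meet these conditions are not shown. Each is written 5′ to 3′ on the strand of the opposite gene, and capitals mark the polyadenylation hexamer AATAAA or ATTAAA.
Mea1 end in Ppp2r5d, chr17:46820014-46820043, plus strand: cactctgtggagAATAAAgcaccctgtgta
Phkg2 end in Gm166, chr7:134726778-134726807, plus strand: cgctgcatctgaAATAAAacctgccacaag
Ccdc39 end in Ttc14, chr3:33711288-33711317, minus strand: tatatgtgcacaAATAAAgtgaaacctaag
Zc3h14 end in Eml5, chr12:100025935-100025964, plus strand: taagatacAATAAAgtcacatctataaaag
Tubb2c end in Fam166a, chr2:25077685-25077714, minus strand: acagataccaccATTAAAgcaattcatagt
Nr2c2 end in Mrps25, chr6:92123020-92123049, plus strand: gaggtttatactATTAAAgtaaattcaaga
The hexamer of the Mea1 end lay 23 bases before the annotated end, that of Phkg2 24 bases, that of Ccdc39 16 bases, that of Zc3h14 36 bases, that of Tubb2c 17 bases and that of Nr2c2 14 bases. In the tail-to-tail arrangement, 263 of the genes had a protein-coding opposite gene, and in 174 of these its annotated 3′ end lay within an exon. Of the 263 opposite genes, 188 (71.5%) had AATAAA or ATTAAA in their last 50 bases on their own strand, against 14904 of 22380 (66.6%) of all annotated protein-coding genes. The hexamer was thus about as common at these ends as at gene ends in general. Only the transcript strand was searched, and an end with both hexamers counted once.

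Promoters are shown for 2 head-to-head cases, since here the opposite gene starts inside the gene that was counted. They are RefSeq sequences of build GRCm38.p6, each with a single exact match in mm9, and cover 250 bases before to 50 bases after the start site. Capitals mark CG dinucleotides.
Serf2 start in Serinc4, chr2:121274684-121274983, plus strand: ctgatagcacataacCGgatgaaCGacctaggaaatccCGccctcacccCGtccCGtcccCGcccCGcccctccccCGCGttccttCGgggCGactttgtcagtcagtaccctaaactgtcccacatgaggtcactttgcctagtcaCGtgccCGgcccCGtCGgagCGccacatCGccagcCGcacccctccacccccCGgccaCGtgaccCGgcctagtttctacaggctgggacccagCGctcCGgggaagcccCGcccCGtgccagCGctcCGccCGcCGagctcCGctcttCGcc
Tssk6 start in Ndufa13, chr8:72425833-72426132, plus strand: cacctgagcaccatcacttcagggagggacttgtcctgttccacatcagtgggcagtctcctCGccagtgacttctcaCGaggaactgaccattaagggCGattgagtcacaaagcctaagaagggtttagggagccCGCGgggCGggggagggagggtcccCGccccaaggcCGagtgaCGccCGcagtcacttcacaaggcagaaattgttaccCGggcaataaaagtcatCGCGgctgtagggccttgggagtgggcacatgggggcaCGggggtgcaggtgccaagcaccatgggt
The Serf2 promoter held 31 CG dinucleotides and the Tssk6 promoter 14, against a median of 7 over 32851 RefSeq promoters. As many as 31 were found in 10.6% and as many as 14 in 36.3% of these promoters. Neither holds TATAAA on either strand, a motif present in 13.6% of all promoters.

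Antisense reads made up a small and even share of the exon reads. They were 0.995% and 0.992% of all gene exon reads in the Nef-sp +/- libraries and 0.990% in each Nef-sp -/- library, of library totals between 20659865 and 34442517 reads. The 662 genes held 94.3% of these antisense reads, 38 of them held as many as all the others together, and the top 10 of the 662 accounted for 28.1% of the total. The median gene had 325.5 antisense reads, with quartiles at 169 and 847.25, and the largest value was 62496. Just inside the limit were Cep170 and EG330513 with 100 reads each, and just outside were Ctsa and Scand1 with 99 each. A total of 40 genes had 100 to 110 reads, and 44 genes that were not included had 90 to 99.

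Acat3, an acetyl-CoA acetyltransferase gene (ENSMUSG00000062480, minus strand of chromosome 17, 13116699 to 13133268), had by far the highest antisense level. Its normalized antisense counts, which are read counts scaled to a common TMM-adjusted library size, were 16012 and 15029 in the Nef-sp +/- libraries versus 16116 and 15746 in the Nef-sp -/- libraries. The corresponding normalized sense counts were 73.7 and 81.0, and 71.6 and 75.7. Antisense reads were 99.5% ± 0.0351 (SD, n = 4) of its exon reads, and the genotypes overlapped. Per kb of annotated exon this is 26651 antisense reads. The opposite gene is Tcp1, a subunit of the TRiC chaperonin that folds actin and tubulin, whose last exon overlaps the last exon of Acat3 over 571 bases (13117126 to 13117696). Tcp1 had 155806 sense reads, so Acat3 antisense reads numbered 40.1 for every 100 Tcp1 sense reads.

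Necab1, which encodes a neuronal calcium-binding protein, followed with 25331 antisense reads and no listed sense count. Its normalized antisense counts were 6541 and 6144 for Nef-sp +/- versus 6365 and 6411 for Nef-sp -/-. It overlaps the tail of Gm11837 over 410 bases. Ppp2r5d, a regulatory subunit of protein phosphatase 2A, had 24519 antisense reads and 362 sense reads. Its normalized antisense counts were 5738 and 6195 in Nef-sp +/- against 6393 and 6149 in Nef-sp -/-, and antisense reads made up between 98.5% and 98.6% of its exon reads in every library. The end of Mea1, male-enhanced antigen 1, covers only 115 bases of it in the annotation used here, and Mea1 had 50646 sense reads.

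The other genes among the top 10 were also tail-to-tail. In 5730403B10Rik, opposite the haem oxygenase gene Hmox2, antisense reads were 24258 against 4897 sense reads. Gm166, opposite the phosphorylase kinase subunit gene Phkg2, had 16629 antisense and 10584 sense reads, so that both strands were abundant. Ttc14 had 15287 antisense reads opposite Ccdc39, which encodes a protein of the ciliary and flagellar axoneme. Eml5 had 11396 against 105 sense reads and overlaps Zc3h14, a poly(A) RNA-binding protein gene. Fam166a had 11246 antisense and 17632 sense reads opposite the beta-tubulin gene Tubb2c, the only one of the 10 with a sense count above its antisense count. B3gat2 had 10054 with no sense count listed, opposite Smap1. Mrps25, a mitochondrial ribosomal protein gene, had 8897 antisense against 853 sense reads opposite the nuclear receptor gene Nr2c2, with the longest overlap of all, 3533 bases.

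**Figure D1:**
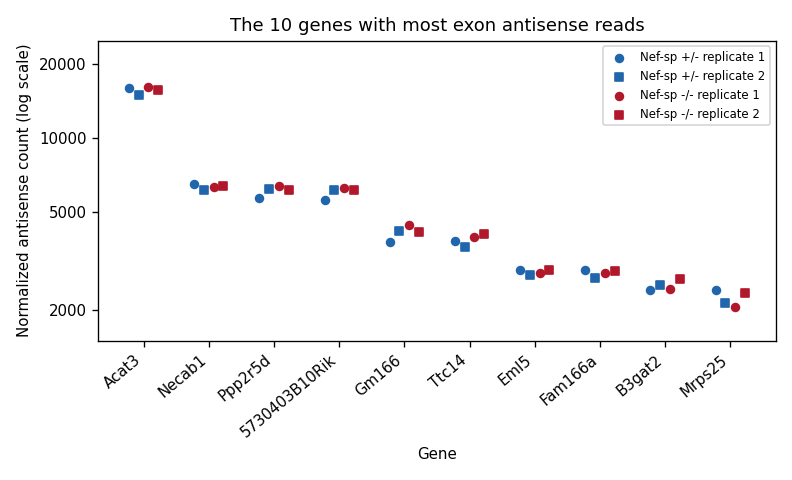
Normalized exon antisense counts (log scale) of the 10 genes with most antisense reads, 1 point per library, blue for Nef-sp +/- and red for Nef-sp -/-, circles for replicate 1 and squares for replicate 2. The 4 libraries lay close together in every gene, with Acat3 between 15029 and 16116 and Mrps25 between 2057 and 2421.

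The antisense percentage, antisense reads over antisense and sense reads of the same exons, ranged over nearly the whole scale. Its median was 15.3% over the 580 genes with both counts. With the 82 genes that had no listed sense count taken as 100%, the median was 24.9%, with quartiles at 4.17% and 84.5%. Antisense reads exceeded sense reads in 160 of the 580 genes with both counts, or in 242 of the 662 if the 82 without a sense count are included. The order of the strands was the same in all libraries for most genes, with more antisense in every library in 145 of the 580 genes and less in every library in 407. Only 28 changed order between libraries or, like Zfp12 and Dusp28, had equal counts in a library without changing order. Supt16h changed order, with 45.9% and 47.1% for Nef-sp +/- versus 50.9% and 45.5% for Nef-sp -/-. Over the 580 genes with both counts the median SD of the percentage between libraries was 1.08 percentage points.

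At the upper end, Serhl, a serine hydrolase-like gene, had 6758 antisense and 22 sense reads. Its normalized antisense counts were 1708 and 1636 for Nef-sp +/- versus 1747 and 1704 for Nef-sp -/-. Ctbs, a lysosomal chitobiase gene, had 3055 antisense and 25 sense reads, Ankzf1 3431 and 37, Tmem82 4428 and 46, Cxcl16, a chemokine gene, 2227 and 43, Slc16a3, a lactate transporter gene, 1375 and 27, and Ccdc111, a primase-polymerase gene, 3755 and 81. All of these except Tmem82 and Cxcl16 were tail-to-tail with their neighbour. Tmem82 contains the opposite gene AI507597, and Cxcl16 is head-to-head with Zmynd15.

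Among the 82 genes without a listed sense count, Far2 had 8568 antisense reads, Rasgrp4 8283 and Cd72, a B-cell surface protein gene, 7727. A missing sense count does not mean that the gene was silent, since the list also held Eno1 (296 antisense reads), Brd3 (218) and Rpl35 (105), which most cells express. Of the 82, 1 had an intron sense count and 45 had an intron antisense count. The introns went with the exons more widely too. Of 99 genes with more antisense than sense exon reads and an intron count, 86 (86.9%) also had more antisense than sense reads in their introns (130 of 144, 90.3%, with those lacking a sense count), against 154 of 366 (42.1%) of the genes with fewer antisense than sense exon reads.

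**Figure D2:**
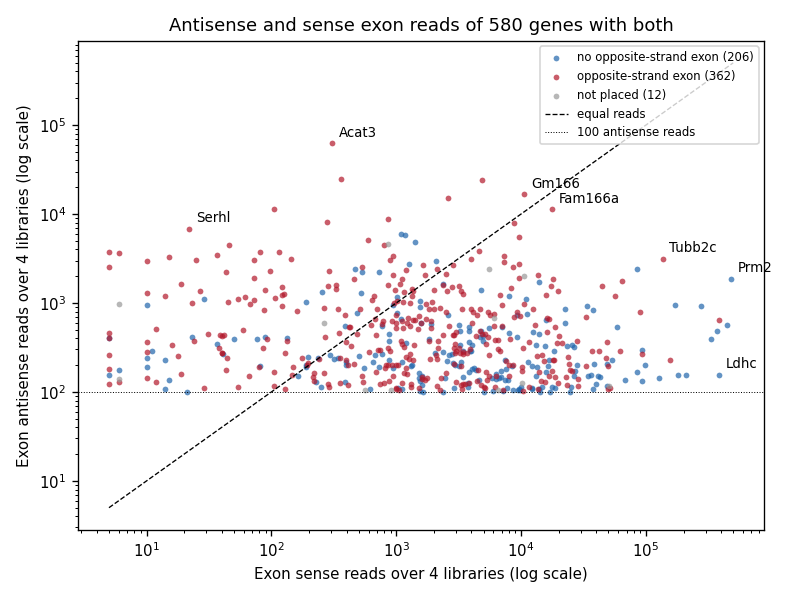
Exon antisense reads against exon sense reads, both summed over the 4 libraries on log scales, for the 580 genes with both counts. Colours mark an annotated exon on the opposite strand (red, 362 genes), none (blue, 206) or no position found (grey, 12), the dashed line marks equal reads and the dotted line the limit of 100 reads that chose the genes, with 160 genes above the dashed line.

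Positions were found for 641 of the 662 genes in GENCODE vM1 on mm9, 616 by symbol and 25 by a synonym. Of these, 422 (65.8%, exact 95% interval 62.0 to 69.5, which covers counting error only) had an annotated exon of another gene on the opposite strand over their exons. Among all genes with a sense count and a position this held for 2605 of 12068 (21.6%). The interval takes the genes as independent, although for 93 of the 422 the opposite gene was itself among the 662. The share was higher at higher antisense percentages. It was 82.2% for genes without a sense count, 75% for those with 50 to 100% antisense, 73.9% for 10 to 50%, 52.5% for 1 to 10% and 42.6% for those under 1%. Genes with an antisense count under 100 reads stood at 39.3%, and those without any antisense count at 16.6%. The authors' own gene models are not named in the sources used here, so an overlap in GENCODE may differ from the one used in counting.

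**Figure D3:**
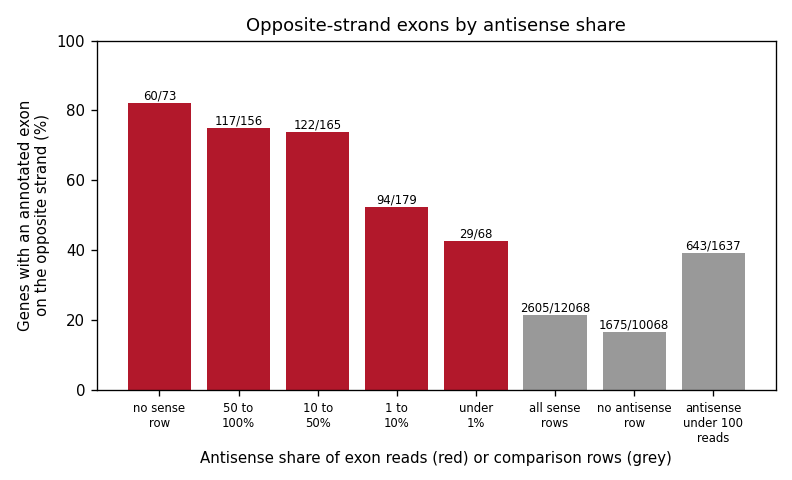
Share of genes with an annotated exon on the opposite strand, in percent of the genes with a position, by antisense share of exon reads (red bars, the 662 genes) and for comparison rows (grey bars), with counts above the bars. The red bars fall from 82.2% to 42.6%, and the grey bar for all sense rows stands at 21.6%.

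Tail-to-tail overlaps were the most frequent kind. Where exons of several genes lay opposite, the gene sharing most exon bases was taken as the opposite gene. Of the 422 genes, 297 (70.4%) were tail-to-tail, 56 (13.3%) head-to-head, 53 contained the opposite gene and 16 lay inside it. Among all 2605 overlapping genes the tail-to-tail share was 46.7% and the head-to-head share 32.0%. The overlap had a median of 377.5 bases (quartiles 183 and 788, range 5 to 3533), against 234 bases among all overlapping genes, and covered a median of 10.1% of the exon bases. In 393 of the 422 no base was coding on both strands. The opposite gene was protein-coding in 331 cases, while 52 were processed transcripts and 34 lincRNAs.

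**Figure D4:**
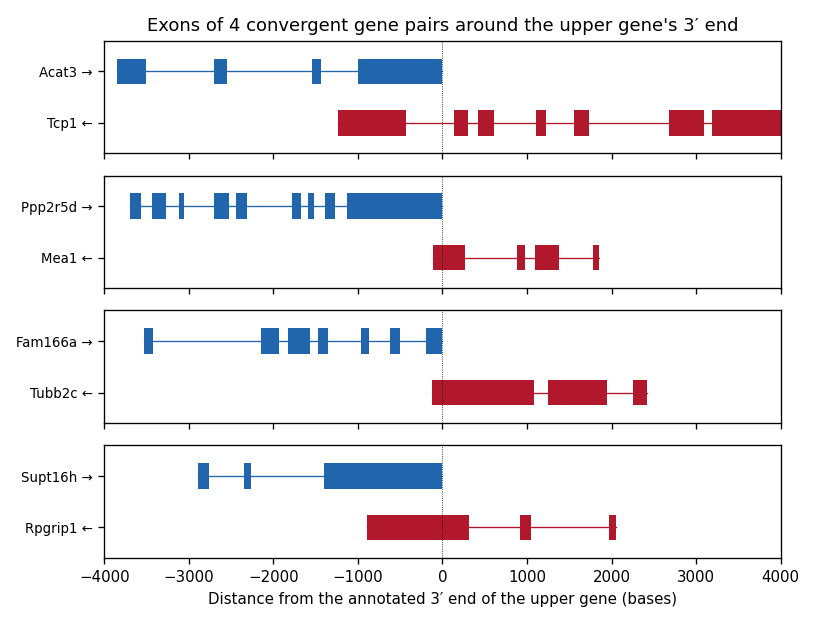
Annotated exons of 4 convergent pairs, to scale, as distance in bases from the 3′ end of the upper gene, up to 4000 bases on each side, with the upper gene in blue read to the right and the opposite gene in red read to the left. The last red exon reaches past the dotted line over the last exon of the upper gene, in the Tcp1 case beyond it into the intron, with overlaps of 571, 115, 121 and 889 bases from top to bottom.

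The opposite gene had a listed sense count in 275 cases. The antisense reads then amounted to a median of 15.1 for every 100 sense reads of the opposite gene, with quartiles at 5.39 and 47.6. The antisense count and the sense count of the opposite gene had a Pearson r of 0.42 on the log10 scale across these 275 genes, which share libraries and, within each overlap, may share reads. In 36 cases antisense reads outnumbered all sense reads of the opposite gene. Serinc4 had 5584 antisense reads opposite Serf2, which was listed with 650 sense reads, and Rufy2 had 3245 opposite the splicing factor gene Hnrnph3 with 542. Rasgrp4 had 8283 opposite Fam98c with 3668. Serinc4 and Rasgrp4 each had exons of 2 genes opposite, and only the gene sharing most bases entered this comparison. Rrp7a, a ribosomal RNA processing factor gene, had no sense count listed, while its neighbour Serhl had 6758 antisense reads. Whether reads in a shared stretch were counted for one gene or for both was not tested.

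In 49 pairs of genes whose exons overlap on opposite strands, both genes had 100 or more antisense reads. The counts are per gene and strand, so where in each gene these reads fell is not known. For example, 1600016N20Rik and Lrrc56 share only 13 bases and had 361 and 787 antisense reads. In the Acat3 and Tcp1 pair, Tcp1 had 228 antisense reads, 0.146% of its exon reads. Fam166a and Tubb2c shared 121 bases, and Tubb2c had 3126 antisense reads beside 136395 sense reads, with normalized antisense counts of 706 and 759 for Nef-sp +/- versus 866 and 811 for Nef-sp -/-. Supt16h, a subunit of the FACT histone chaperone, had 7953 antisense and 8855 sense reads, and the opposite gene Rpgrip1, a photoreceptor cilium gene, had 1346 and 19726. Cd72 had 7727 antisense reads and Tesk1, a testis-expressed protein kinase gene, 266 against 92876 sense reads, with a shared stretch of 1423 bases. Becn1, an autophagy gene, and Cntd1, a cyclin-like gene of meiotic crossing over, shared 3104 bases and had 2909 and 2520 antisense reads, the most even of the pairs described here.

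Of the 219 placed genes without an opposite-strand exon, 72 (32.9%) had a gene on the opposite strand within 1000 bases and 128 (58.4%) within 10000 bases. The corresponding values for the 9463 genes with a sense count and no such exon were 32.7% and 57.7%, nearly the same. Ranbp6, an importin family gene, had 5943 antisense and 1095 sense reads, and its nearest opposite gene was 99660 bases away. Zmynd11, a histone reader gene, had 5871 antisense reads over its exons and 4038 over its introns, against 1177 and 133 sense reads. Ddx54, an RNA helicase gene, had 4834 against 1423, and Lef1, a transcription factor of the Wnt pathway, 2986 against 2081. Tmem151b had 4899 and no listed sense count.

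Only 1 of the 641 placed genes was on the X chromosome (0.156%), against 455 of 12068 genes with a sense count (3.77%). This gene was Nkap, a transcriptional repressor gene, with 122 antisense and 5 sense reads. It overlaps the end of Akap14 over 49 bases. Of the 641 genes, 638 were annotated as protein-coding.

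The most abundant testis mRNAs formed the other end of the range. Among the 100 genes with the highest sense counts, 20 had 100 or more antisense reads, with a median antisense percentage of 0.185% (0.0407% to 2.73%). A list of 42 genes fixed for this purpose is called spermatid mRNAs here, although it also holds the germ cell marker Ddx4. Of these, 40 had a sense count and 7 were among the 662, each with less than 0.42% antisense. Protamines and transition proteins replace histones in the condensing spermatid nucleus. Prm2, protamine 2, had 1873 antisense reads against 480915 sense reads, and no annotated gene on the opposite strand over its exons. Its normalized antisense counts were 340 and 523 for Nef-sp +/- versus 512 and 461 for Nef-sp -/-, and its normalized sense counts were 96587 and 130663, and 123192 and 123966. Replicate 1 of Nef-sp +/- was the lowest for both strands. In that library the 9 germ cell markers summed to 163230 normalized sense counts, against 184141 to 190749 in the others. The lower sum was that of the spermatid mRNAs Prm1 and Tnp1, since the other 7 markers summed to 29585 there and to between 28006 and 28844 in the others. The part of this library's spermatid mRNA level in the Prm2 antisense values was not tested. In bulk RNA, fewer cells of a type and less RNA per cell cannot be told apart.

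Tnp1, transition protein 1, had 921 antisense reads, Tnp2 486, Prm1 398, Odf2, an outer dense fibre protein gene of the sperm tail, 647, the spermatid kinase gene Tssk1 205 and Ldhc, the germ cell lactate dehydrogenase gene, 156. Their antisense percentages lay between 0.0407% for Ldhc and 0.416% for Tssk1, and no gene exon was annotated opposite to Tnp1, Tnp2, Prm1, Tssk1 or Ldhc. Odf2 is overlapped over 97 bases by a U6 small nuclear RNA annotation. Sycp3, a protein of the synaptonemal complex, had 253 antisense and 13346 sense reads and overlaps exons of Chpt1 over 660 bases.

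The counts of the other lists are to be read beside all genes with a sense count, of which 580 of 12415 were included. Of the nuclear exosome and its cofactors, 4 of the 21 genes with a sense count were included. Exosc8, an exosome core subunit, had 2259 antisense and 291 sense reads and overlaps Fam48a by 85 bases. Skiv2l2, the helicase that feeds RNA to the nuclear exosome, had 1569 and 17282, Rbm7 454 and 7978 and Zc3h18 211 and 2853. Of a list of proteins that handle double-stranded RNA, 25 had a sense count. Son alone was included, with 194 antisense and 49665 sense reads. None of 39 imprinted or antisense-regulated loci was included, of which 15 had a sense count and 6 an antisense count. At the share over all genes, few or none of the 15 would be included.

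The targeted gene checked the labels first. The normalized sense counts of Nef-sp (chromosome 7, 126937520 to 126992457) were 1843 and 1693 for Nef-sp +/- versus 407 and 497 for Nef-sp -/-, with no overlap and a log2 fold change of -1.97 (SE 0.092, edgeR quasi-likelihood test, Benjamini-Hochberg adjusted p = 4.1e-06). No antisense count was listed for it. It was the only 1 of 10728 tested genes (0.00932%) whose sense count passed an adjusted p of 0.05, and DESeq2 called 2. Of a list of 34 testis cell type markers, 27 had a sense count. The summed normalized counts of Leydig cell markers were 19368 and 19560 for Nef-sp +/- against 18513 and 16078 for Nef-sp -/-, those of peritubular markers 1261 and 1226 against 1082 and 1183, and those of globin genes 253 and 358 against 209 and 211. In these 3 groups the sums of both Nef-sp -/- libraries were lower, and the part of these groups in the antisense values was not tested. The Leydig cell sum followed Cyp11a1 (log2 fold change -0.35) and Cyp17a1 (-0.27). The other Leydig cell markers, Star (0.08), Hsd3b1 (0.15), Hsd3b6 (0.01) and Insl3 (0.18), were not lower. Immune markers summed to at most 23.1, while the epididymis marker Crisp1 was at 5.77 in 1 Nef-sp -/- library and at 0 in the other libraries.

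No antisense level differed between the genotypes beyond the spread of the libraries by the test across all rows. By the edgeR quasi-likelihood test 0 of 1008 antisense rows (0%) passed, with a smallest Benjamini-Hochberg adjusted p of 0.996 and 30 below an unadjusted p of 0.05. DESeq2 called 0, with 1 below an unadjusted p of 0.05. All 662 genes were tested, 22 had an unadjusted p under 0.05, and the log2 fold changes of Nef-sp -/- over Nef-sp +/- ran from -0.72 to 0.89. Their median was 0.01, and their median absolute value was 0.12, against 0.15 over all rows tested. In 529 genes the absolute log2 fold change was under 0.25, and the median SE over all 662 was 0.20. Without replicate 2 of Nef-sp +/-, the deepest library, 3 genes passed. These were Cldn3, a tight junction gene, at a log2 fold change of 0.56 (edgeR adjusted p = 2.9e-04), Ndufa13, a respiratory complex I gene, with 0.42 (0.0019) and Prm2 with 0.51 (0.031), whereas with all libraries their values were 0.27, 0.16 and 0.15. The test then rests on a single Nef-sp +/- library, assumed to vary like the Nef-sp -/- pair.

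Cldn3 had normalized antisense counts of 578 and 821 for Nef-sp +/- versus 888 and 818 for Nef-sp -/-. Ndufa13, whose antisense strand carries the spermatid kinase gene Tssk6 shown above, had 1084 and 1501, and 1509 and 1393. As for Prm2, the second Nef-sp +/- library lay within or above the range of the Nef-sp -/- libraries, and only the first was low. The normalized sense counts of Tssk6 were lowest in that library too, with 3688 and 5155 for Nef-sp +/- versus 5032 and 4744 for Nef-sp -/-. The part of Tssk6 reads in the Ndufa13 antisense counts was not tested.

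In 124 of the 662 genes (18.7%) both Nef-sp -/- libraries lay above both Nef-sp +/- libraries, close to the 17.1% among all antisense rows tested. The reverse held for 81 genes (12.2%), against 13.3% of all rows. The 5 genes with the smallest p-values are described next. They were chosen from this same fit, so differences above the median absolute log2 fold change of 0.12 follow from the choice. Ppp1r11, an inhibitory subunit gene of protein phosphatase 1, had normalized antisense counts of 21.0 and 21.5 for Nef-sp +/- versus 37.3 and 41.6 for Nef-sp -/-, which gave a log2 fold change of 0.89 (SE 0.28), from 116 reads in all. Antisense reads were 0.181% and 0.179% of its exon reads in Nef-sp +/-, against 0.295% and 0.335%. Topors, a ubiquitin and SUMO ligase gene, had 237 and 305 against 332 and 362, a log2 fold change of 0.33 (SE 0.12). Ccdc117 had 53.6 and 65.2 against 83.9 and 90.4, and Sla2, an adaptor protein gene of T cells, 806 and 746 against 894 and 974. Pmpca, a mitochondrial processing peptidase gene, was lower in Nef-sp -/-, with 48.9 and 43.0 against 29.1 and 28.5 and a log2 fold change of -0.65 (SE 0.26). The adjusted p was 0.996 for all 5 genes by the edgeR test.

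**Figure D5:**
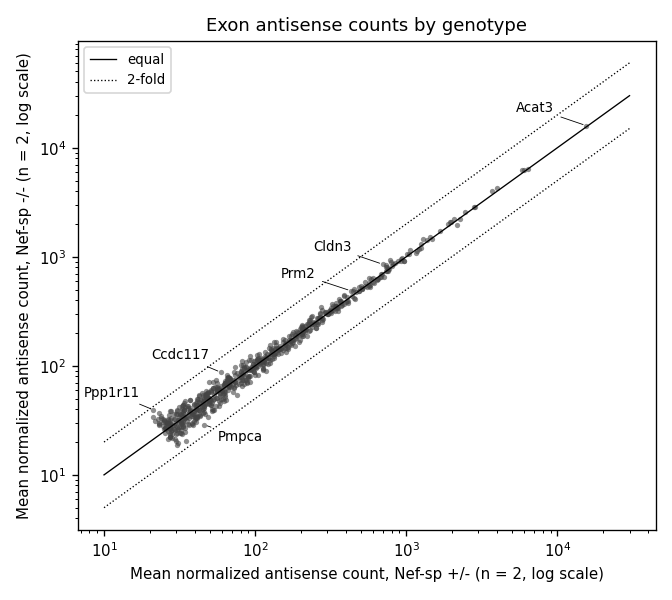
Mean normalized exon antisense count of the 662 genes in Nef-sp -/- against Nef-sp +/- (n = 2 each, log scales), with a solid line at equality and dotted lines at a 2-fold difference. The points follow the solid line over the whole range, and the largest fitted log2 fold change, that of Ppp1r11, was 0.89.

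Antisense reads were also compared relative to the sense reads of the same gene. In the edgeR test of strand by genotype 0 of 885 genes (0%) passed, with a smallest adjusted p of 0.992 and 34 below an unadjusted p of 0.05, and DESeq2 called 0, with 6 below an unadjusted p of 0.05. Of the 580 genes of the 662 that were tested, 23 had an unadjusted p under 0.05, and 15 had an absolute log2 ratio change of 1 or more. These larger values came with few sense reads. Nkap, at -4.60, the lowest value of the 580, had 0 sense reads in both Nef-sp +/- libraries and 5 in all. The highest value of the 580 was 4.15, so large changes occurred in both directions. Cadm2, a cell adhesion gene, changed by -1.18 (SE 0.39), and its normalized sense counts were 5.76 and 14.8 for Nef-sp +/- versus 25.4 and 28.4 for Nef-sp -/-. Atp11a, a phospholipid flippase gene, changed by 0.54 (SE 0.20) with antisense percentages of 4.41% and 5.29% against 7.21% and 6.65%. Tesk1 changed by -0.47 (SE 0.20), with 0.346% and 0.312% against 0.238% and 0.226%. None of these passed after adjustment.

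Summed over the 662 genes, antisense reads were 8.36% and 8.09% of the exon reads for Nef-sp +/- versus 8.02% and 8.11% for Nef-sp -/-. The difference of -0.161 percentage points was within the spread of the Nef-sp +/- pair (exact two-sided permutation p = 0.667, where 2 libraries against 2 cannot give less than 0.33). Sense counts of the genes were tested as well. Of the 529 with a tested sense count none passed by edgeR (18 had an unadjusted p under 0.05, as did 515 of all 10728), and their median absolute log2 fold change was 0.06, against 0.07 over all 10728. Of the sense counts of the lists, 0 of 40 spermatid mRNAs, 0 of 21 exosome genes, 0 of 21 double-stranded RNA handling genes, 0 of 13 imprinted loci and 0 of 23 cell type markers passed, while 5, 1, 3, 0 and 3 of them, in this order, had an unadjusted p under 0.05, to be read beside the 515 of 10728 over all sense rows.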

How the data were processed

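Total RNA of testis was depleted of ribosomal RNA and sequenced strand-specifically for 50 cycles in 4 libraries, 2 for each genotype. Per the labels and methods, the authors mapped the reads to mm9 and deposited raw counts of reads per feature, annotation category and strand, which were used here. The gene models and the treatment of reads in overlapping genes are not given in the sources used here. The authors' own DESeq2 comparison (mean, log2 fold change, p-value and adjusted p-value columns) was deposited beside the counts and was not used. Totals were between 20659865 and 34442517 reads, whose number limits the precision of low counts.

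Genes were included at 100 or more antisense reads over the 4 libraries. Counts were compared in R 4.3.3 with edgeR 4.0.16 (TMM within the category, minimum count 10, quasi-likelihood test, Benjamini-Hochberg adjustment over all rows tested, threshold 0.05) and with DESeq2 1.42.0 as an alternative. The ratio fit used both strands with the library as a block. Scripts were tested on simulated data. Shares of summed reads were compared by an exact permutation test (scipy 1.17.1). Gene symbols were matched to GENCODE vM1 on mm9, directly or through RefSeq synonyms, and exons of other genes on the opposite strand were counted from 1 shared base. Figures were drawn with matplotlib 3.10.9.

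Genes and lists were chosen with earlier results of these data known. Named are the 10 genes with most antisense reads, the 10 with the highest antisense percentage at 20 or more sense reads, up to 5 without a sense count, the 5 with the smallest p in each fit (none passed the threshold), up to 4 members of each list, the genes at the limit and the 5 pairs with most antisense reads. The genes without opposite-strand exons, the head-to-head examples, those outnumbering their opposite gene, Becn1, Cntd1, Tssk1, Ldhc, Eno1, Brd3, Rpl35, Cldn3 and Ndufa13 were chosen after their values were seen.

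The alternatives were DESeq2 size factors, the library size without TMM, no expression filter, DESeq2, a single fit over all categories, a fit to the included genes alone, the replicate number as a block, each library left out in turn, and other read and overlap minimums. Same-numbered libraries did not deviate together (correlation of deviations -0.04 over 1008 antisense rows and -0.09 over 10728 sense rows), so the numbers were not taken to pair them.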

Additional observations from a re-analysis of the deposited data

How the results depend on the processing

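The count of antisense genes past the threshold was 0 under all alternatives except 1. With each library left out in turn it was between 0 and 3, and the 3 calls came without replicate 2 of Nef-sp +/-. The cause was not tested. Blocking on the replicate number, the antisense and ratio counts were both 0, the median log2 fold change was 0.01 and the call for Nef-sp stayed (-1.97), so the block changed no call. The numbers are not known to pair the libraries.

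The median log2 fold change of the 662 genes, 0.01, was -0.025 with library sizes without TMM and -0.0039 without the expression filter, and between -0.0013 and 0.015 with a library left out. The genotype difference in antisense share was 0.332 percentage points (exact p = 1) as a median over genes, and thus of opposite sign to that of the summed reads. The share with an opposite-strand exon was 61.9% at 50 or more overlapping bases, 61.9% for genes with 50 or more reads and 71.2% for those with 200 or more. With 50 or more overlapping bases, the share among all genes with a sense count was 19.3%.

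Fold changes near 0 turned sign in 6 of the top 10 genes. With library sizes without TMM they were -0.026 for Necab1, -0.023 for Eml5 and -0.013 for Fam166a, without the filter -0.0036 for Necab1 and -0.00021 for Eml5, and in the single fit -0.011 for Necab1 and -0.0075 for Eml5. With a library left out they ranged from -0.011 to 0.072 for Acat3, -0.038 to 0.044 for Necab1, -0.026 to 0.039 for Eml5, -0.030 to 0.062 for Fam166a, -0.024 to 0.12 for B3gat2 and -0.16 to 0.036 for Mrps25. Their adjusted p was at least 0.960 throughout.

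With 2 libraries per genotype and a median SE of 0.20, small changes were not detectable at this depth, and low sense counts left ratios such as that of Nkap uncertain.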
